A study of Hydra vulgaris with 113 samples.

Results

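In Hydra vulgaris, 43 gene models had higher RNA levels within 3 h of a cut through the body column at head-regenerating and at foot-regenerating wounds alike. By the rule that chose them, most of that increase, on the log2 scale, was still there at 8 h. These gene models were selected on measured values from the 33820 gene models of the deposited table. The values that chose them were the CPM (the estimated count per 1e6 counts of its library) of the untreated tips at 0, 3 and 8 h, averaged over 3 libraries a group and taken as log2(CPM + 0.5). A gene model had to reach a mean of 2 CPM in at least 1 of these 6 groups, which 14633 did. It then had to be at least 1.5 higher at 3 h than at 0 h on both sides, and to differ by less than 1 between head and foot at 0 h and at 8 h. These conditions left 80 gene models. In 43 of them the mean change from 0 to 8 h was more than 0.5 of the mean change from 0 to 3 h. The other 37, called the genes that had fallen back, kept less and serve below as the nearest group for comparison.

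Polyps of strain 105 were cut at the middle of the body column. The wound tip of the lower piece grows a new head and that of the upper piece a new foot, and the collected tips are called head and foot regenerates accordingly. Tips were taken at 0, 3, 8 or 12 h after the cut from untreated polyps, or at 0, 8 or 12 h from polyps held in 5 µM iCRT14, which went on from 2 h before the cut until collection. The RNA-seq data form 14 groups of 3 libraries, each library made from the polyadenylated RNA of 30 pooled tips. Per the labels, the untreated 0, 3 and 8 h libraries were made with a TruSeq kit, and the untreated 12 h and all iCRT14 libraries with a KAPA kit. Kit and time therefore cannot be told apart between untreated 8 h and 12 h, nor kit and inhibitor at 0 h and 8 h. The comparison tips are labelled only as untreated.

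Hydra rebuilds a head or a foot from the same body column tissue, and any wound first sets off an injury response of stress signalling and early transcription before the tip takes on its fate. Canonical Wnt signalling, in which β-catenin enters the nucleus and acts with the transcription factor TCF, patterns the head end of the polyp and is switched on during head regeneration. iCRT14 is a small molecule made to block the binding of TCF to β-catenin. The gene models carry only numeric identifiers. The files do not pair them with names, and 0 of the 33820 matched the reference gene table, so no role can be given to any of them and no marker of a cell type could be looked up. Only a few are named below, as examples of each pattern.

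Library totals ran from 13.5 to 44.1 M counts (median 19.0 M, where M stands for 1e6 counts). Over the kept gene models the median SD of log2 values within a group was 0.0964 for TruSeq and 0.191 for KAPA. For the 43 it was 0.166 and 0.203. No pair of replicates agreed within sampling noise, as the chi-square per degree of freedom ran from 2.61 to 77.5 over the 42 pairs. In bulk tips, fewer cells of a type and less RNA per cell cannot be told apart.

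At 0 h most of the 43 genes were low. The rule favours this, since it asks for an increase of at least 1.5 from 0 h. It also lets a gene model reach 2 CPM at 3 or 8 h alone. At 0 h, 13 of them lay under 1 CPM, 18 from 1 to 10 CPM and 12 at 10 CPM or more. Their median of group means was 1.97 CPM in head and 2.21 CPM in foot, where all kept gene models had medians of 15.6 and 15.5 CPM. At 3 h the median of the 43 was 11.6 CPM in head and 16.7 CPM in foot. At 8 h it was 16.4 and 12.1 CPM. The median of the set thus went from below the median of all kept gene models to about that level. Because these values chose the members, they are given without a test.

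**Figure D1:**
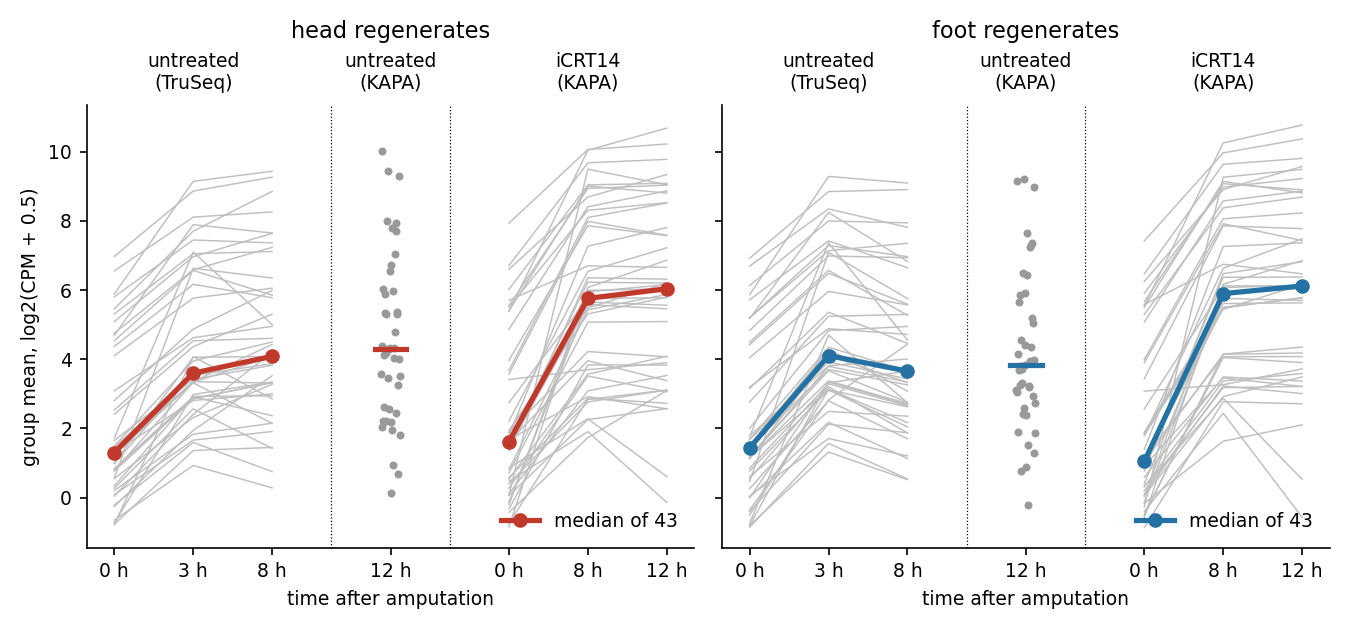
Group mean log2(CPM + 0.5) of each of the 43 gene models (thin lines, and points at untreated 12 h) and their median (thick line or bar) by hours after amputation, in head and foot regenerates, untreated or in iCRT14, with the kit above each block. The median of the group means in untreated head is 1.97 CPM at 0 h and 16.4 CPM at 8 h, and in iCRT14 head 2.58 and 53.6 CPM.

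The increase from 0 to 3 h, as a log2 difference, had a median of 2.04 in head (range 1.504 to 6.05) and 2.34 in foot (range 1.65 to 6.62). From 0 to 8 h the medians were 2.48 in head (0.86 to 5.77) and 1.80 in foot (0.78 to 5.29). Averaged over both sides they were 2.13 at 3 h and 2.14 at 8 h, and the share of the 3 h change still present at 8 h had a median of 0.957 (0.525 to 1.61). In the 37 genes that had fallen back, the corresponding medians were 2.18 and 0.42. Just inside the rule, g22317 was 1.504 higher at 3 h on its weaker side, and just outside, g26061 was 1.45 higher. For the share kept at 8 h the nearest values were 0.525 (g7649, inside) and 0.473 (g23304, outside). For the side difference at 8 h they were 0.996 (g28717, inside) and 1.00 (g4324, outside).

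The most abundant of the 43 at 8 h were g7977 and g2274. In the 3 replicates g7977 stood at 56.1, 59.1 and 60.7 CPM in head and 54.8, 63.8 and 54.5 CPM in foot at 0 h. At 3 h it stood at 550, 568 and 573 CPM in head and 629, 607 and 630 CPM in foot. At 8 h it was at 691, 684 and 693 CPM in head and 522, 550 and 561 CPM in foot. The replicates lay close together, foot was above head at 3 h, and head was above foot at 8 h, with no overlap at either time. For g2274 the 0 h libraries spanned 119 to 130 CPM over both sides. At 8 h the head libraries read 587, 615 and 637 CPM and the foot libraries 438, 480 and 515 CPM.

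The largest change by 3 h was that of g3893, with a mean log2 difference of 6.34 over both sides. At 0 h it gave 0.53, 1.62 and 0.821 CPM in head and 0.882, 0.612 and 1.15 CPM in foot. At 3 h it gave 106, 93.9 and 95.6 CPM in head and 163, 102 and 141 CPM in foot. At 8 h the head libraries were at 119, 66.7 and 57.0 CPM and the foot libraries at 65.8, 53.6 and 40.8 CPM, and the sides overlapped at 0, 3 and 8 h. The next largest, g23720 (5.49), had the steepest later decline of the 43. It stood at 137, 143 and 129 CPM in head and 168, 158 and 167 CPM in foot at 3 h. At 8 h it stood at 32.6, 30.9 and 30.9 CPM in head and 23.9, 24.8 and 20.3 CPM in foot, a mean log2 difference of -2.45 from 3 h. Even so its 8 h levels were all well above the 2.12 to 3.80 CPM of its 0 h libraries.

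A few genes went on increasing. g19568 had the largest change from 3 to 8 h, 1.70 on the log2 scale. Its 3 h libraries gave 5.36, 3.02 and 6.06 CPM in head and 7.90, 6.61 and 5.24 CPM in foot, and its 8 h libraries 20.6, 15.5 and 17.7 CPM in head and 25.6, 17.3 and 20.6 CPM in foot. All 8 h libraries lay above all 3 h libraries. For g6732 the change was 0.96, and it differed by side. At 3 h it was at 3.28, 2.85 and 3.90 CPM in head against 9.74, 8.31 and 10.4 CPM in foot. By 8 h head had reached 10.5, 11.2 and 11.3 CPM and foot 12.5, 11.1 and 12.8 CPM.

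Most of the 43 changed order between the sides from 3 to 8 h. At 3 h, 38 of the 43 were higher in foot, with a median head minus foot log2 difference of -0.29. At 8 h, 37 of the 43 were higher in head, with a median of 0.48. At 0 h the genes were split 22 to 21, with a median of 0.01. Of all kept gene models, 55.2% were higher in head at 0 h, 55.7% at 3 h and 49.7% at 8 h. Scaling by TMM-adjusted library sizes instead of column totals gave 39 of 43 higher in foot at 3 h and 37 of 43 higher in head at 8 h. The rule bounded the size of this difference at 0 h and 8 h but not its sign.

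At 3 h the foot libraries all lay above the head libraries in 25 of the 43, where 8.53% of all kept gene models did so, and the head libraries lay above in 0, where 10.9% of all did. At 8 h the head libraries lay above without overlap in 28 of the 43 (10.2% of all) and the foot libraries in 1 (10.5% of all). Since the same libraries chose the members, these shares are given as a description. From 3 to 8 h the median change was 0.29 in head, where 30 of 43 were higher at 8 h, and -0.64 in foot, where 7 of 43 were. Under TMM scaling the counts were 32 and 9. Of all kept gene models, 38.3% in head and 41.9% in foot were higher at 8 h than at 3 h, by column totals. In 23 genes the level was higher at 8 h in head and lower at 8 h in foot, in 13 it was lower on both sides and in 7 higher on both. The opposite pattern, lower in head and higher in foot, was found in 0. Medians over all kept gene models were -0.06 in head and -0.03 in foot.

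**Figure D2:**
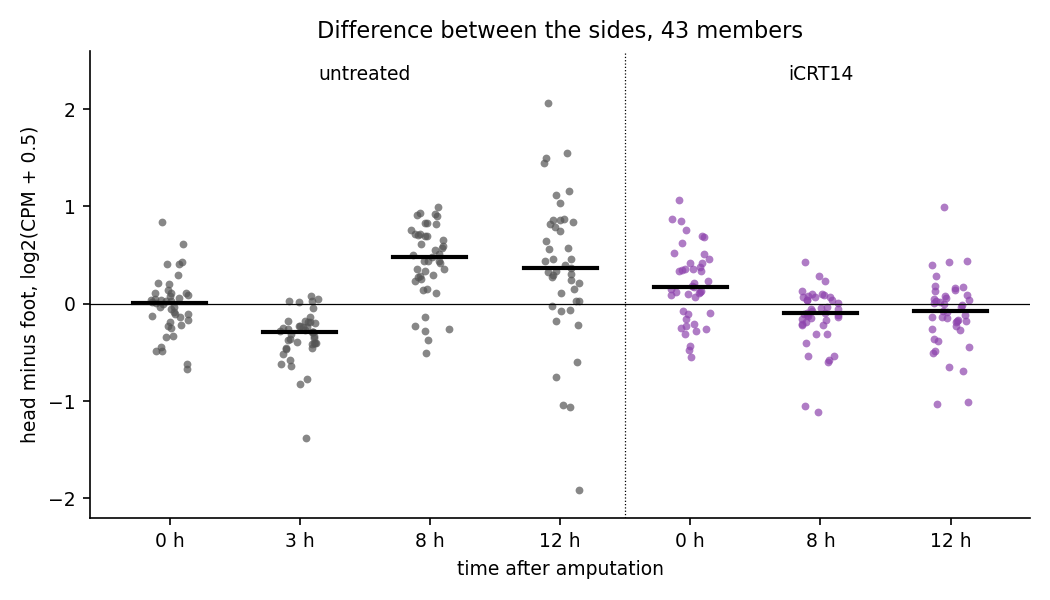
Head minus foot difference in log2(CPM + 0.5) for each of the 43 gene models (points) with the median (bar), by hours after the cut, untreated and in iCRT14. Untreated medians are 0.01, -0.29, 0.48 and 0.37 at 0, 3, 8 and 12 h, and those in iCRT14 are 0.17, -0.09 and -0.07 at 0, 8 and 12 h.

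Untreated tips at 12 h were not used by the rule, and there the head side was still the higher one for many of the genes. At 12 h, 16 of the 43 were higher in head (1.35% of the 19989 gene models tested were called in this direction) and 2 were higher in foot (0.936% of all), by edgeR's quasi-likelihood test with Benjamini-Hochberg adjustment at 0.05. The median head minus foot log2 difference was 0.47 (range -1.91 to 2.22), against -0.01 over all gene models tested. Of the 37 genes that had fallen back, 4 were higher in head and 3 in foot. All 43 genes passed the filter on low counts in this and all later comparisons. Against these 18 calls in all, there were 11 without foot replicate 2, 12 without foot replicate 3, and 13 without head replicate 1 or without head replicate 3. When only the groups compared were fitted, there were 4 calls, 3 higher in head and 1 in foot. These counts can include genes that were not among the 18.

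The largest head excess at 12 h was that of g28166. At 12 h it stood at 64.9, 59.2 and 60.8 CPM in head and at 13.3, 19.4 and 10.4 CPM in foot, so the groups were far apart. The log2 difference was 2.22 (SE 0.232), with an edgeR adjusted p of 1.37e-06. At 8 h the sides of g28166 had been close, with 23.2, 19.1 and 20.8 CPM in head and 17.5, 13.1 and 16.2 CPM in foot. At lower level, g2790 stood at 1.75, 1.39 and 1.17 CPM in head and 0.221, 0.388 and 0.485 CPM in foot, a log2 difference of 2.08 (SE 0.385, edgeR adjusted p 0.00239), which was not called with only the groups compared (adjusted p 0.162).

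g29487 went the other way. Its 12 h libraries gave 5.67, 5.48 and 3.68 CPM in head and 18.1, 23.8 and 18.3 CPM in foot, a log2 difference of -1.91 (SE 0.303, edgeR adjusted p 4.14e-04). At 8 h its head libraries had read 8.74, 5.51 and 6.004 CPM and its foot libraries 6.53, 6.56 and 5.49 CPM, so that the sides overlapped then. The other gene called higher in foot, g12434, read 4.50, 2.09 and 4.16 CPM in head and 6.06, 9.45 and 8.13 CPM in foot. Its log2 difference was -1.02 (SE 0.271, edgeR adjusted p 0.0471). The call was lost with only the groups compared (adjusted p 0.378) and without head replicate 1, 2 or 3 or foot replicate 2 or 3 (adjusted p 0.0503 to 0.208).

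Most of the 43 genes also rose in the iCRT14 tips, none of which the rule had used. From 0 to 8 h, 40 of the 43 rose in head (6.39% of all gene models tested rose) and 42 in foot (10.0% of all rose), and 0 fell on either side (6.46% of all fell in head and 7.37% in foot). The median log2 fold change was 3.55 in head (0.22 to 10.12) and 3.75 in foot (0.10 to 10.74), by edgeR's quasi-likelihood test. The medians over all gene models tested were 0.01 and 0.04. Of the 37 genes that had fallen back in untreated tips, 33 rose in head and 35 in foot, with medians of 2.49 and 2.42. In CPM the median of the 43 went from 2.58 to 53.6 in head and from 1.57 to 59.0 in foot.

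At 12 h in iCRT14 the levels were still high. Against 0 h, 41 of the 43 were higher in head (13.3% of all) and 41 in foot (14.0% of all), and 0 were lower (15.7% of all were lower in head and 12.9% in foot). The median log2 fold changes were 4.24 in head and 3.99 in foot. The smallest called changes were those of g28166, 0.69 in head, where its 0 h and 12 h libraries overlapped, and 0.74 in foot. Between them, 40 genes were called higher at 8 h and at 12 h on both sides. In the genes that had fallen back, 33 were higher and 2 lower in head and 31 were higher in foot, with medians of 2.36 and 1.97. Leaving out any 1 library kept each of these counts for the 43 between 40 and 42.

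The largest of these changes were those of g3893 and g10056. In iCRT14 at 0 h, g3893 gave 1.26, 0.116 and 0.291 CPM in head and 0.392, 0.159 and 0.435 CPM in foot. These levels were low and in head uneven between libraries, so the size of the fold changes from 0 h is uncertain. At 8 h g3893 gave 572, 608 and 976 CPM in head and 608, 602 and 627 CPM in foot. The log2 fold changes from 0 to 8 h were 10.12 (SE 0.460, edgeR adjusted p 1.27e-13) in head and 10.74 (SE 0.487, edgeR adjusted p 1.17e-13) in foot. At 12 h it read 478, 541 and 559 CPM in head and 551, 731 and 864 CPM in foot, where the 8 h and 12 h libraries overlapped.

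For g10056 the 0 h libraries in iCRT14 held at most 4 counts each, so that its fold change is given as a ratio of summed counts scaled to library totals. From 0 to 8 h it was 1022 in head (95% interval 399 to 3751) and 414 in foot (225 to 864), where the interval covers counting error only. At 8 h its libraries read 53.1, 70.4 and 77.1 CPM in head and 64.3, 64.0 and 85.8 CPM in foot. At 12 h they read 104, 97.2 and 146 CPM in head and 107, 111 and 127 CPM in foot. All 12 h libraries of g10056 were above all 8 h libraries of the same side.

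The genes not called were few and are named for that reason, after their values were seen. g25038 and g7649 were not called at 8 h in head or at 12 h on either side, and g28166 was not called at 8 h on either side. The first pair varied widely within groups. In foot at 8 h in iCRT14, g25038 read 10.7, 0.783 and 3.33 CPM and g7649 read 13.1, 1.03 and 6.35 CPM, with both highest in replicate 1 and lowest in replicate 2. Their 12 h foot libraries in iCRT14 read 0.0743, 0 and 0.450 CPM for g25038 and 0.669, 0.547 and 1.62 CPM for g7649. The libraries of g28166 lay closer together. At 0 h in iCRT14 it read 11.4, 9.11 and 9.99 CPM in head and 8.01, 6.72 and 9.08 CPM in foot, where the untreated 0 h libraries of the other kit had read 1.57 to 3.17 CPM. At 8 h it stood at 8.46, 13.5 and 15.5 CPM in head and 7.51, 10.3 and 9.49 CPM in foot.

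From 8 to 12 h in iCRT14, some of the 43 rose further. In head 15 were higher at 12 h (6.35% of all) and 0 lower (7.39% of all), with a median log2 change of 0.35. In foot 4 were higher (0.655% of all) and 0 lower (0.515% of all), with a median of 0.32. By edgeR's test at an unadjusted p under 0.05, 24 members in head and 19 in foot passed in either direction. Of all 19989 gene models tested, 5708 passed in head and 3042 in foot. Of the genes that had fallen back in untreated tips, 1 was higher and 6 lower in head, and 0 were higher and 8 lower in foot, with medians of -0.44 and -0.60. The difference between the 2 gene groups was not tested. The count in head was 9 when scaled by library size alone, and the count in foot was 15 with all 42 libraries fitted, 13 higher and 2 lower, and 9 with DESeq2, all higher. In addition, 1 gene was called lower in foot with no filter on low counts, and 1 in head with only the groups compared and without head replicate 3 at 12 h.

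**Figure D3:**
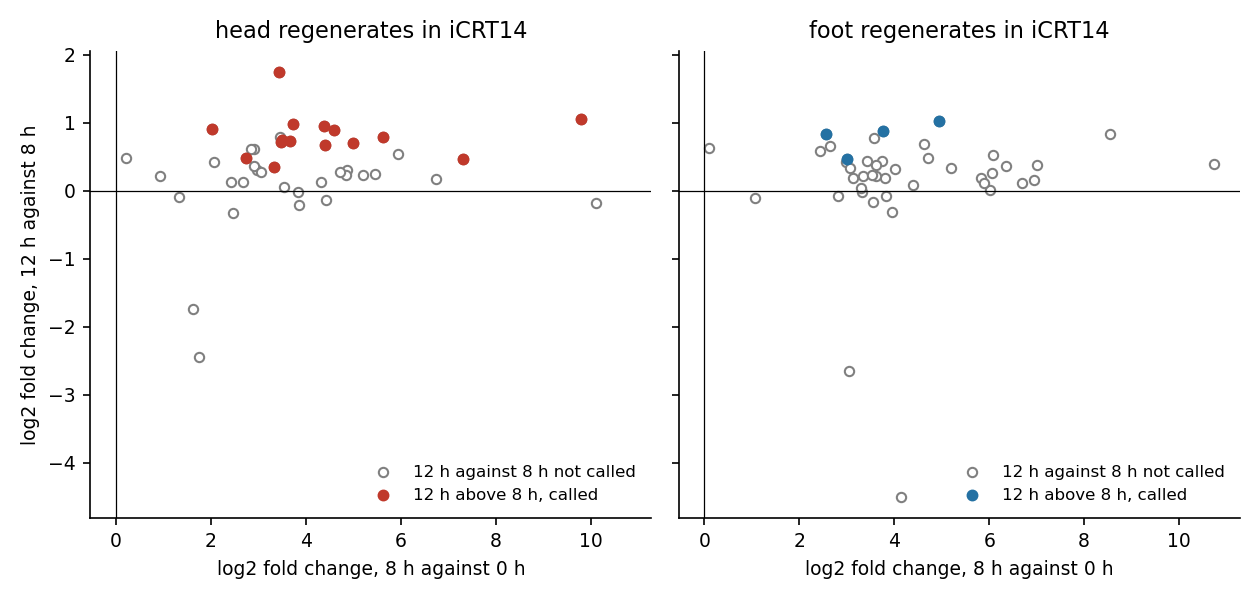
Log2 fold change in iCRT14 from 0 to 8 h (horizontal axis) and from 8 to 12 h (vertical axis) for each of the 43 gene models, in head and foot regenerates, with genes called higher at 12 h than at 8 h as filled points. Filled points number 15 in head and 4 in foot, and the lowest points on both sides are g25038 and g7649.

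The 4 genes called in foot, g15630, g18842, g270 and g28828, were also among the 15 called in head. In foot, g15630 went from 108, 96.3 and 90.8 CPM at 8 h to 156, 184 and 195 CPM at 12 h. The log2 change was 1.02 (SE 0.214, edgeR adjusted p 0.0192). In the same tips g270 went from 533, 439 and 462 CPM to 691, 820 and 766 CPM, by 0.83 (SE 0.136, edgeR adjusted p 0.00439). The 8 h and 12 h libraries of g15630 and of g270 did not overlap. Without foot replicate 2 or 3 at 12 h, or replicate 1 or 2 at 8 h, 2 calls were left: those of g15630 (adjusted p 0.0586 to 0.0932) and g28828 (0.116 to 0.161) were lost. In head the largest changes were 1.75 for g19927 (SE 0.462, edgeR adjusted p 0.0161) and 1.06 for g10056 (SE 0.220, edgeR adjusted p 0.00495). g19927 read 3.63, 2.55 and 2.31 CPM at 8 h and 9.78, 8.83 and 5.55 CPM at 12 h, and its call was lost without replicate 1 at 12 h or replicate 2 or 3 at 8 h (adjusted p 0.0531 to 0.0689).

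In iCRT14 few of the 43 were called between the sides. At 8 h, 0 of the 43 were higher in head (0.190% of all) and 1 was higher in foot (0.255% of all), with a median head minus foot difference of -0.13. At 12 h again 0 were higher in head (0.465% of all) and 1 was higher in foot (0.430% of all), with a median of -0.00017. With only the groups compared, 2 were higher in head and 2 in foot at 12 h. At an unadjusted p under 0.05 in edgeR's test, 5 members passed at 8 h and 8 at 12 h. Of all 19989 gene models tested, 1108 passed at 8 h and 2668 at 12 h. Of the 16 genes that were higher in head in untreated tips at 12 h, 0 were called between the sides in iCRT14 at 12 h, and the test of that change is the interaction given below. The single gene on both occasions was g6732. At 8 h in iCRT14 it stood at 3.80, 3.85 and 5.19 CPM in head and 8.90, 10.6 and 10.0 CPM in foot, a log2 difference of -1.24 (SE 0.204, edgeR adjusted p 0.00186; 0.0616 with only the groups compared). At 12 h in iCRT14 it stood at 5.58, 5.13 and 5.64 CPM in head and 13.3, 11.1 and 10.2 CPM in foot, a log2 difference of -1.01 (SE 0.201, edgeR adjusted p 0.0114). The 12 h call was lost without replicate 1 or 2 of either side (adjusted p 0.0624 to 0.115).

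At 12 h, where treated and untreated libraries share a kit, most of the 43 were higher in iCRT14 than in untreated tips. In head 32 were higher (4.15% of all) and 3 lower (4.55% of all). In foot 36 were higher (6.47% of all) and 0 lower (5.53% of all). The median log2 fold change was 1.49 in head (-2.04 to 3.82) and 2.01 in foot (-2.64 to 4.41), where all gene models tested had medians of -0.01 and -0.02. All 32 genes higher in head were also called higher in foot. As a plain ratio of mean CPM the median was 2.71 in head and 3.77 in foot. Of the genes that had fallen back, 30 were higher in head and 25 in foot, and 0 were lower on either side. Their medians were 1.80 and 1.39.

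**Figure D4:**
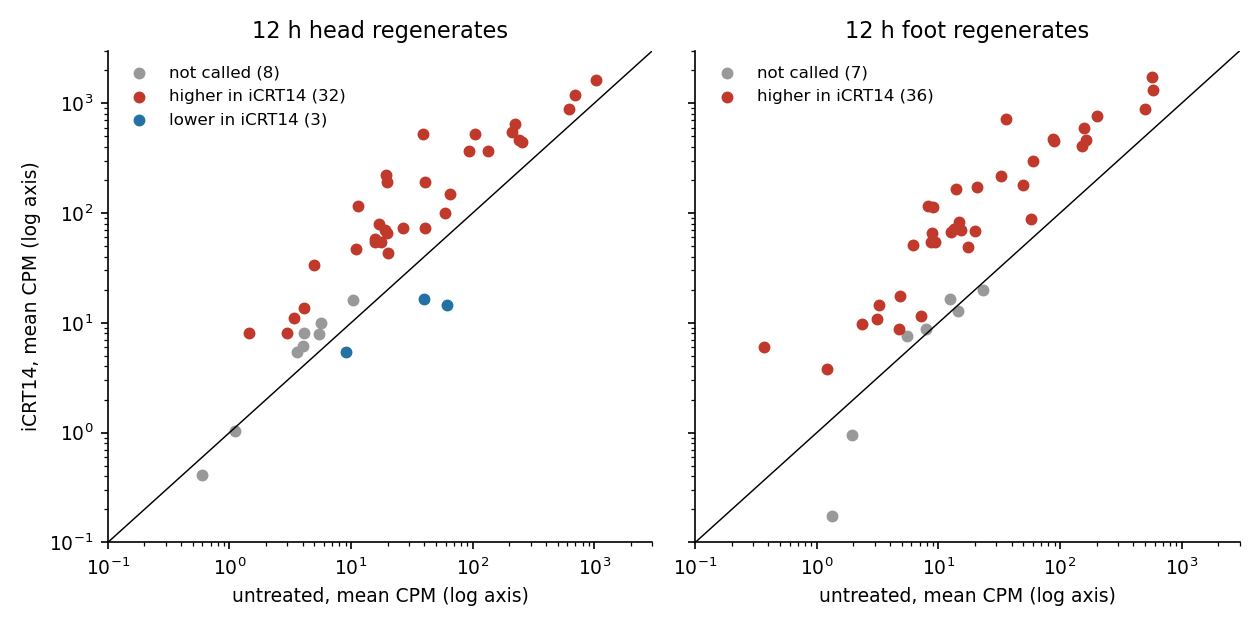
Mean CPM at 12 h in untreated tips (horizontal axis, log scale) and in iCRT14 (vertical axis, log scale) for each of the 43 gene models, with called genes coloured and the line of equal levels drawn. In head 32 genes were called higher and 3 lower, and in foot 36 were called higher and 0 lower.

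The largest difference on both sides was that of g3893. Untreated tips at 12 h gave 50.4, 38.2 and 27.7 CPM in head and 28.7, 35.6 and 43.4 CPM in foot, and iCRT14 tips gave the levels listed above, between 478 and 864 CPM, with no overlap. The log2 fold change was 3.82 in head (SE 0.324, edgeR adjusted p 3.25e-08) and 4.41 in foot (SE 0.333, edgeR adjusted p 2.21e-09). In head the next was g234, with 15.0, 19.9 and 22.8 CPM untreated and 232, 218 and 220 CPM in iCRT14, a log2 fold change of 3.59 (SE 0.181, edgeR adjusted p 1.28e-11). In foot the next was g2790, with 0.221, 0.388 and 0.485 CPM untreated and 4.46, 7.34 and 6.38 CPM in iCRT14, a log2 fold change of 4.15 (SE 0.363, edgeR adjusted p 2.52e-08). None of these groups overlapped.

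The 3 genes that were lower in iCRT14 in head regenerates were g28166, g19568 and g6732. g28166 was at 64.9, 59.2 and 60.8 CPM in untreated head and at 16.3, 9.12 and 17.8 CPM in iCRT14 head, a log2 fold change of -2.04 (SE 0.229, edgeR adjusted p 1.97e-06). g19568 was at 36.5, 38.4 and 43.4 CPM untreated and at 17.2, 17.2 and 15.1 CPM in iCRT14, a log2 fold change of -1.21 (SE 0.268, edgeR adjusted p 0.00446). In foot both were within the spread between libraries: the log2 fold changes were -0.07 (SE 0.230, edgeR adjusted p 0.891) for g28166 and -0.13 (SE 0.268, edgeR adjusted p 0.819) for g19568. For g6732 the log2 fold change in head was -0.68 (SE 0.201, edgeR adjusted p 0.0341), with 6.98, 11.2 and 9.18 CPM untreated against the 5.13 to 5.64 CPM of iCRT14 head. The call of g6732 was lost without untreated replicate 2 or 3 or any 1 iCRT14 replicate (adjusted p 0.0825 to 0.168).

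The inhibitor's effect was then compared between the sides with an interaction contrast at 12 h. The log2 fold change by iCRT14 was more positive in foot than in head in 35 of the 43, with a median head minus foot difference of -0.49, against 0.0027 over all gene models tested. The contrast passed for 4 of the 43 in this direction (0.175% of all) and for 0 in the other (0.0300% of all). At an unadjusted p under 0.05 in edgeR's test, 23 of the 43 passed in either direction, against 1154 of the 19989 tested. Of the genes that had fallen back, 0 passed, with a median of 0.14. With all 42 libraries fitted 11 passed, and with DESeq2 7. Among the 16 genes that were higher in head in untreated tips, 15 were called higher in iCRT14 than untreated in foot, where 36 of all 43 were. Of the same 16, 3 (g18842, g22114 and g28166) passed the interaction. All these calls share the untreated 12 h foot libraries, so low values there favour each of them and the overlaps are only a description.

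**Figure D5:**
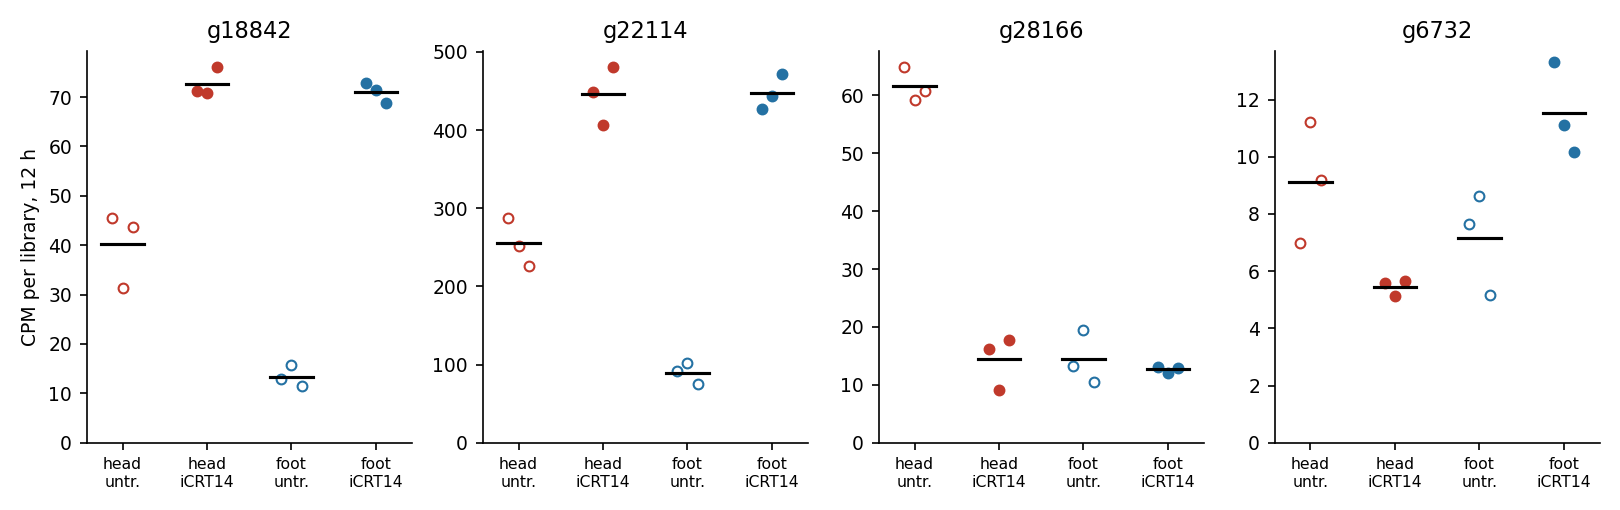
CPM in each of the 12 libraries at 12 h (points) for g18842, g22114, g28166 and g6732, the gene models whose iCRT14 effect differed between head and foot, with group means as bars. For g22114 the untreated head libraries at 226 to 288 CPM lie above the untreated foot libraries at 75.0 to 102 CPM, while in iCRT14 head and foot overlap at 407 to 481 CPM.

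The 4 genes were of 2 kinds. g18842 and g22114 differed between the sides in untreated tips and met at a common, higher level in iCRT14. g18842 read 45.5, 31.4 and 43.7 CPM in untreated head and 12.8, 15.7 and 11.5 CPM in untreated foot, against 71.2, 70.8 and 76.1 CPM and 72.8, 71.4 and 68.8 CPM in iCRT14. Its interaction was -1.60 (SE 0.208, edgeR adjusted p 1.66e-04). g22114 read 288, 252 and 226 CPM in untreated head and 92.2, 102 and 75.0 CPM in untreated foot, against 448, 407 and 481 CPM and 427, 443 and 472 CPM in iCRT14, with an interaction of -1.56 (SE 0.180, edgeR adjusted p 6.43e-05).

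g28166 and g6732 were instead lower in iCRT14 in head. For g28166 the untreated head libraries stood apart from the other 3 groups, which lay between 9.12 and 19.4 CPM, and its interaction was -1.97 (SE 0.322, edgeR adjusted p 0.00356). For g6732 the effect had opposite directions: -0.68 in head and 0.78 in foot (SE 0.201, edgeR adjusted p 0.0114), where untreated foot read 7.66, 8.61 and 5.15 CPM. Its interaction was -1.47 (SE 0.284, edgeR adjusted p 0.0231), with a call that was lost with only the groups compared (adjusted p 0.139). It was also lost without untreated head replicate 2 or 3, untreated foot replicate 3, or iCRT14 replicate 1 or 2 of either side (adjusted p 0.0647 to 0.112).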

How the data were processed

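The members, the gene group set beside them and the tests were chosen with earlier results of these data known. The authors deposited estimated counts per gene model, made with Trimmomatic 0.36, Bowtie2 and RSEM 1.2.31 per the submitters' processing notes; genome build and annotation are not given in the sources used here. Reads shared between similar gene models are divided by estimation: 16.2% of the members' 1806 values were not whole, against 24.8% of all. CPM used the column totals. Values were rounded for edgeR 4.0.16 (R 4.3.3; quasi-likelihood test, filterByExpr, TMM, Benjamini-Hochberg over all 19989 gene models tested, two-sided, calls below 0.05), fitted on the 24 KAPA libraries (8 groups of 3) without a replicate block; 12 comparisons were made. The edgeR fit was checked on simulated counts for a single comparison, with the same spread for every gene model. The member rule and the interaction were not part of that check. P-values rest on the spread between the 3 labelled replicates, each of pooled tips, in an estimate that all 8 groups share. That spread was unequal between the 8 groups. Over the kept gene models the median SD of log2 values ran from 0.125 (iCRT14 foot, 0 h) to 0.284 (untreated head, 12 h). In untreated foot at 12 h it was 0.271. Depth was 13.5 to 44.1 M counts (M, 1e6). Genes were named by rank: the top 2 called in each direction per comparison, the 2 most abundant at 8 h, the 2 largest rises, the 2 largest and 2 smallest changes from 3 to 8 h, and those nearest a threshold. For the calls in foot from 8 to 12 h, for those not called at 8 or 12 h and for the interaction, where there were at most 5, all were named. Alternatives were all 42 libraries, only the groups compared, no filter, library size alone, DESeq2 1.42.0, a replicate block, each library left out, and other thresholds of the rule. TMM scaling of the side differences was added after seeing the data. The 71 ATAC-seq libraries were not used here.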

Additional observations from a re-analysis of the deposited data

Results flagged for a closer look

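The effect of iCRT14 at 12 h differed between head and foot regenerates in 4 of the 43 genes, by edgeR's quasi-likelihood test of the interaction. The head minus foot difference in log2 fold change was -1.97 for g28166, -1.60 for g18842, -1.56 for g22114 and -1.47 for g6732. In g28166 the untreated head libraries were the ones that stood apart, in g18842 and g22114 the untreated foot libraries were the lowest group, and in g6732 the inhibitor's effect had opposite signs on the 2 sides. What underlies these differences was not tested.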

How the results depend on the processing

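Of 186 alternative values for the counts of called members and of members, 163 stayed within 1.5 times the value reported and 23 did not. All 42 libraries in the fit gave 15 calls from 8 to 12 h in iCRT14 foot (2 of them lower), 2 between the sides in iCRT14 at 8 h, 2 at 12 h and 11 for the interaction. DESeq2 gave 9, 2, 2 and 7 for the same. Only the groups compared gave 4 calls between the sides at 12 h in untreated tips (3 higher in head) and 4 in iCRT14 (2 higher in head and 2 in foot). Library size alone gave 9 from 8 to 12 h in iCRT14 head, and no filter gave 2 between the sides in iCRT14 at 8 h. A rise of at least 1 gave 80 members and of at least 2 gave 24. A pseudocount of 1 gave 37, of which 35 were shared. Leaving out 1 library gave 40 to 41 calls from 0 to 8 h in iCRT14 head, 40 to 42 in foot, and 40 to 41 from 0 to 12 h on each side. From 8 to 12 h it gave 11 to 17 in head and 2 to 5 in foot. Between the sides it gave 11 to 20 in untreated tips at 12 h, 1 in iCRT14 at 8 h and 0 to 1 at 12 h, with 0 without head or foot replicate 1 or 2. For iCRT14 against untreated tips it gave 33 to 35 in head and 33 to 36 in foot, for the interaction 3 to 5, and for the members 41 to 46. Another 433 alternative values covered single named genes and counts of members by direction under TMM scaling. In 43 of them a named gene lost its call. The other 390 kept the call or, for the counts, stayed within 1.5 times, and 0 changed sign. Correlations between the deviations of same-numbered libraries ran from -0.261 to 0.158, and those of differently numbered ones from -0.284 to 0.303. The numbers were therefore not used as pairs. With 3 libraries a group, such correlations cannot show whether any libraries were prepared together. With a replicate block the calls were 40, 42, 41 and 41 against 0 h, 16 and 5 from 8 to 12 h in head and foot, 17, 1 and 1 between the sides, 35 and 36 for the inhibitor and 4 for the interaction, and g12434 was no longer called between the sides in untreated tips (edgeR adjusted p 0.0620). The causes of these differences were not tested. Depth limits the genes near 0 counts at 0 h, whose fold changes depend on few counts.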

Other observations

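g23720 was already above its untreated level at 0 h in iCRT14 libraries, which were made with another kit: 21.3, 12.5 and 11.7 CPM in head and 15.9, 14.8 and 12.8 CPM in foot, against 2.12 to 3.80 CPM in untreated 0 h libraries of both sides. At 12 h, within 1 kit, it read 182, 162 and 225 CPM in iCRT14 head and 21.9, 19.3 and 17.8 CPM in untreated head. Whether the 0 h difference comes with the kit or with the inhibitor cannot be told apart.

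In some groups, picked after the values were seen, g25038 and g7649 had their highest library in common. With 3 libraries a group, unrelated genes also share their highest library in some groups. How often it held over the 14 groups was not counted, and whether these genes vary together was not tested. In untreated head at 8 h, g25038 read 1.74, 0.248 and 0.170 CPM and g7649 read 2.79, 0.371 and 0.396 CPM, both highest in replicate 1. In iCRT14 head at 0 h they read 0.589, 0 and 2.08 CPM and 0.631, 0.116 and 3.20 CPM, both highest in replicate 3.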
